A study of Mus musculus with 16 samples.

Results

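The genes Taar1, Taar2, Taar3, Taar4, Taar5, Taar6 and Taar9 encode trace amine-associated receptors. They were taken by gene symbol from an array study of sorted cells of the mouse olfactory mucosa, and made up 7 of the 19505 genes measured. Each of the 7 genes was read by 1 array feature. The other 8 Taar genes on the array belong to the Taar7 and Taar8 subfamilies.

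Trace amine-associated receptors are G protein-coupled receptors that most vertebrate noses use to detect volatile amines. An olfactory sensory neuron that expresses a Taar gene usually expresses only that receptor, in place of an odorant receptor of the Olfr type, and signals through the same olfactory cascade of Golf, adenylyl cyclase 3 and the cyclic nucleotide-gated channel. Taar1 is the exception, because it acts in the brain on monoamine signalling and is not counted among the olfactory receptors. Taar3, Taar4 and Taar5 are known for their responses to isoamylamine, to beta-phenylethylamine and to trimethylamine.

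The study exposed 24 mice of both sexes, aged 7 to 12 weeks, to clean air in single chambers for 40 h at 3.1 L/min. After 26 h the mice received pulses of 10 s every 20 min, either of filtered air as the vehicle or of whiskey lactone, an odorant of oak-aged spirits that is a lactone and carries no amine group. All mice were of the S100a5-tauGFP line on strain C57BL/6, in which the fluorescent reporter follows S100a5, which olfactory sensory neurons express according to their activity and which encodes a protein that binds calcium. Cells of 3 mice were pooled and sorted into a GFP+ and a GFP- fraction, which gave 4 groups of 4 arrays from 8 pools. The groups were vehicle GFP+, vehicle GFP-, odor GFP+ and odor GFP-, as the sample titles give them. A second label, the cell type, gives the opposite fraction to the title in all 16 arrays. Arrays are therefore called titled GFP+ or titled GFP- throughout, and every difference between fractions is the titled GFP+ value minus the titled GFP- value. These differences would change sign if the cell type label were taken instead, whereas differences between odor and vehicle within a fraction would keep theirs and change only the name of the fraction.

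S100a5 itself was lower in the arrays titled GFP+ in all 8 pools, by 1.23 ± 0.09 (SE) on the log2 scale in vehicle pools and 1.34 ± 0.09 in odor pools, so the reporter gene goes against the titles. Its mean signal was 15.28 ± 0.27 (SD, n = 4) in vehicle arrays titled GFP+ and 16.51 ± 0.19 in those titled GFP-. The olfactory neuron marker Omp was high in every group, with means between 18.54 and 18.68, and differed between fractions by -0.06 and -0.14 without passing the test. All 10 neutrophil markers of a fixed list were higher in the arrays titled GFP+ under both treatments, with median differences of 8.57 and 8.49. The log2 of their summed signal spanned 18.11 to 19.71 in the arrays titled GFP+ and 9.80 to 11.63 in those titled GFP-, where 3 (vehicle) and 2 (odor) of the 10 genes stayed at or below background on all 4 arrays. All 6 sustentacular cell markers and all 7 microvillar cell markers were also higher there under both treatments, as were 7 (vehicle) and 6 (odor) of the 7 macrophage markers measured. Of the immature neuron markers 4 of 7 were higher under each treatment (medians of 2.00 and 1.93), and of the progenitor markers measured 3 of 4 (median 3.26 under each). Over all genes, 12.3% were higher in vehicle pools and 12.8% in odor pools. The fraction differences below come from the same arrays as these marker differences, and the part of the markers in them was not tested. In bulk samples such as these, fewer cells of a type and less RNA per cell cannot be told apart.

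The 7 genes lie at either end of 1 cluster of 15 Taar genes that spans 189129 bp of chromosome 10 (GRCm38.p6), with no other protein-coding gene inside it. Along the chromosome, Taar1 to Taar6 are the first 6 genes and Taar9 is gene 15. The gene models run from base 23920406 to 23921404 for Taar1, 23938572 to 23941583 for Taar2, 23949558 to 23950589 for Taar3 and 23960494 to 23961537 for Taar4. Those of Taar5, Taar6 and Taar9 run from 23970706 to 23971719, 23984609 to 23985646 and 24108488 to 24109534. The model of Taar2 spans 3012 bp and the others 999 to 1047 bp. All 7 lengths are multiples of 3, but the span of a model need not be its coding length. RefSeq windows of 300 bases, 250 before and 50 after the start of the gene model, were at hand for 5 of the 7 genes, Taar2, Taar3, Taar5, Taar6 and Taar9. The 4 windows printed here belong to the gene that was higher in the arrays titled GFP+ (Taar2), to a pair that was lower (Taar3 and Taar9) and to a gene that, like Taar1, passed the test in neither direction (Taar6). Capitals mark the first 3 bases after the start, which read ATG in each window, and any match to the TATA box letters TATAAA. The windows are chr10:23938322-23938621 on the plus strand for Taar2, chr10:23949308-23949607 on the plus strand for Taar3, chr10:23985597-23985896 on the minus strand for Taar6 and chr10:24109485-24109784 on the minus strand for Taar9 (GRCm38.p6), each written 5′ to 3′.
Taar2: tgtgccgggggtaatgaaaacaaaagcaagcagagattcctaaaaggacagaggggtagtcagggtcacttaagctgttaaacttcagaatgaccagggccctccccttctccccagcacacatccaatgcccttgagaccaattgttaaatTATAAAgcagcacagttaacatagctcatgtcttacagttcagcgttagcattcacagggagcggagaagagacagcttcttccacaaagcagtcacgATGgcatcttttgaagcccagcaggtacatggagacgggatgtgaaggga
Taar3: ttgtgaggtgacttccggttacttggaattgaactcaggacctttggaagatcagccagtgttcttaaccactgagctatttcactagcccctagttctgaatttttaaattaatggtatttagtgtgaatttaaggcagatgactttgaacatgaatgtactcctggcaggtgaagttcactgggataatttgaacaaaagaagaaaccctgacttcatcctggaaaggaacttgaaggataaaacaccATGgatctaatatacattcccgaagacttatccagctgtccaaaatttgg
Taar6: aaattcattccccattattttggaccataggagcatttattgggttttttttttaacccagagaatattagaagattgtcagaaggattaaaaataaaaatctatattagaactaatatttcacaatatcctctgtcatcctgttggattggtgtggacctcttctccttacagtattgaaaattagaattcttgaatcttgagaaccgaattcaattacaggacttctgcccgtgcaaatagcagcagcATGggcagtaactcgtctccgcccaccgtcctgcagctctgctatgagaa
Taar9: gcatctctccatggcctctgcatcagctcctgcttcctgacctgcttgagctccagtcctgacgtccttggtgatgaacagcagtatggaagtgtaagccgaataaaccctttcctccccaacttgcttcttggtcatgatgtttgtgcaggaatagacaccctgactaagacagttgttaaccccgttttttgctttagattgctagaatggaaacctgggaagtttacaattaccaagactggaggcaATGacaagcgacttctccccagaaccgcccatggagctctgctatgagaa

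Because each window is anchored at an ATG, it covers the bases before the coding start, which need not be the start of transcription. TATAAA was found on either strand in 2 of the 5 windows (40.0%), against 13.6% of all 32851 windows and 41.0% of the 948 windows of Olfr genes. In the Taar2 window above its first base lies at position 153 on the plus strand, and in the Taar5 window at position 246, where it runs into the ATG. The letters TAATTA, the core of many homeodomain sites, were in 0 of the 5 windows on either strand, against 5.29% of all windows and 18.6% of Olfr windows. The Olf-1 consensus of the early B-cell factor family and its shorter core CCCNNGGG, which the consensus contains, were also in 0 of 5, against 0.904% and 13.7% of all windows and 0.527% and 3.06% of Olfr windows. The longest run shared between the first 50 bases from the ATG of any pair of these 5 genes was 16 bases, agctctgctatgagaa, in Taar6 and Taar9, and the next longest was 8 bases, in Taar3 and Taar5. The same run stood in the window of Taar8b, which shared 21 bases with Taar6.

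Levels are log2 signals as deposited, and the background of an array is the median of its 5222 negative control features, which lay between 4.98 and 5.59. Taar2, Taar3, Taar4, Taar6 and Taar9 were above this background on 16 of 16 arrays. Taar5 was above it on 1 array, odor pool 4 titled GFP-, and Taar1 on 0 of 16. Against the stricter 95th percentile of the negative controls, between 9.09 and 10.11, none of the 7 genes was above background on every array. The number of arrays above it was 5 for Taar2, 2 for Taar3, 5 for Taar4, 7 for Taar6, 7 for Taar9 and 0 for Taar1 and Taar5.

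**Figure D1:**
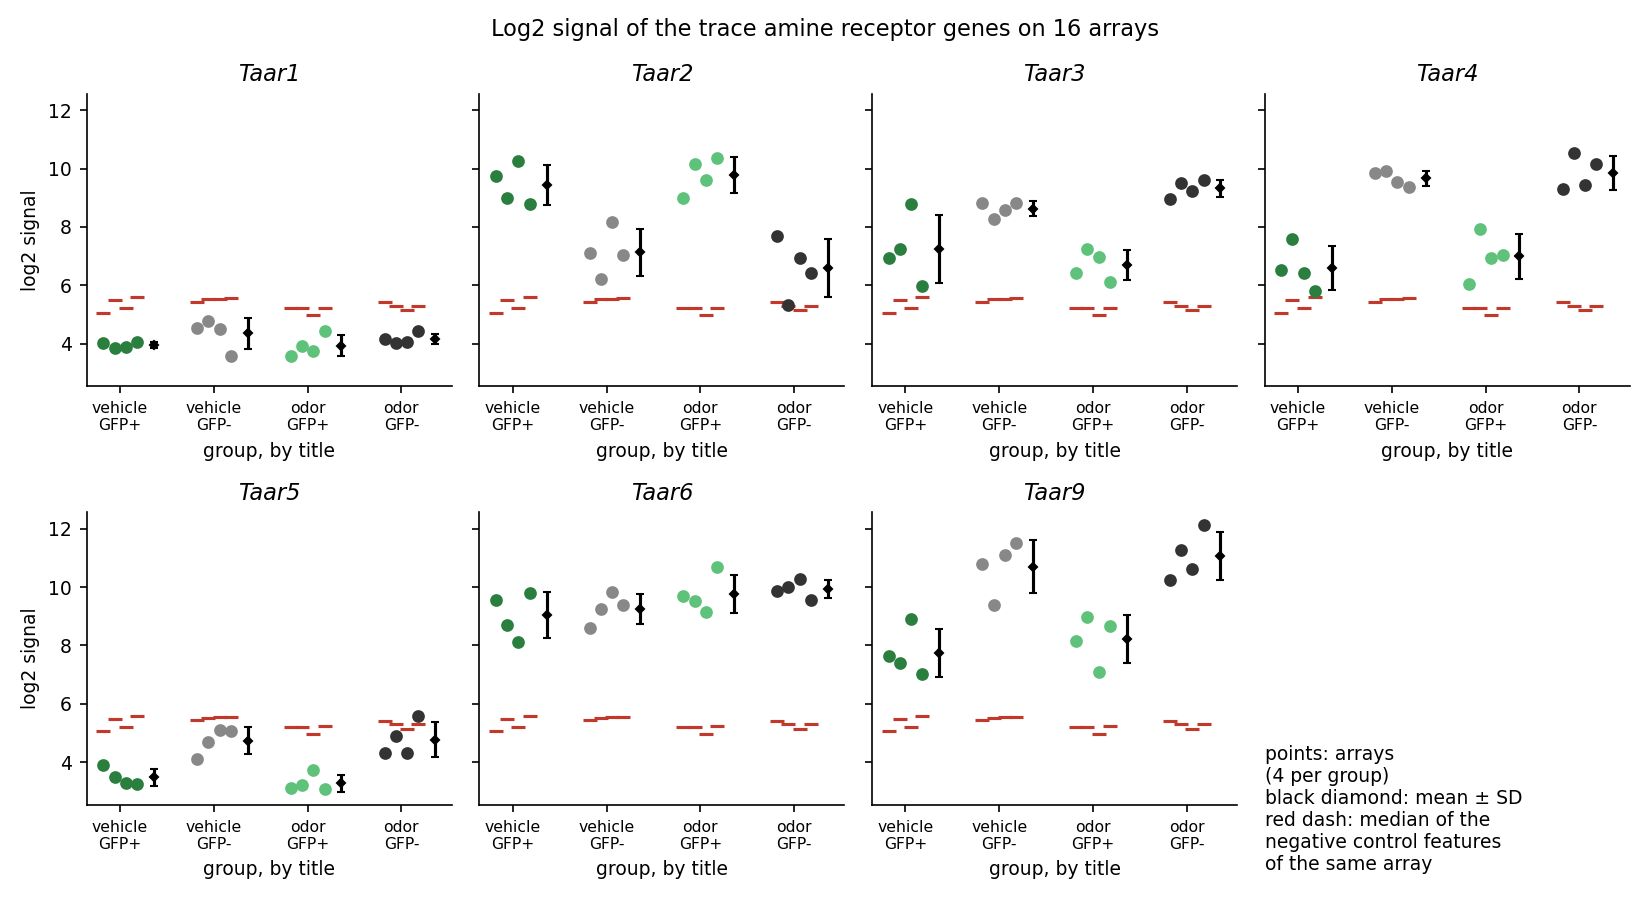
Log2 signal of the 7 Taar genes on each of the 16 arrays, by group (points, single arrays; black diamonds, mean ± SD of 4 arrays; red dashes, median of the negative controls). Taar2 lies higher and Taar4, Taar5 and Taar9 lie lower on the arrays titled GFP+ without overlap in either treatment, Taar1 and Taar5 lie at or below the negative controls on nearly all arrays, and the groups of Taar6 overlap.

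Taar2 was the one gene of the 7 that was higher in the arrays titled GFP+. Its signal in vehicle pools 1 to 4 was 9.74, 8.99, 10.26 and 8.79 in the arrays titled GFP+, and 7.12, 6.20, 8.16 and 7.02 in those titled GFP-. In odor pools 1 to 4 it was 8.99, 10.17, 9.59 and 10.36 in the arrays titled GFP+, and 7.69, 5.33, 6.93 and 6.42 in those titled GFP-. Every array titled GFP+ was above every array titled GFP-, and the difference was positive in 8 of 8 pools, from 1.31 to 4.84. In the fit (limma, pool as a block, Benjamini-Hochberg adjustment over all genes) Taar2 rose by 2.32 ± 0.41 (SE) in vehicle pools, 4.99-fold, with adjusted p = 0.00103, and by 3.19 ± 0.41 in odor pools, 9.10-fold, with adjusted p = 6.3e-05. The array titled GFP- of odor pool 2, the pool with the largest difference, was only 0.04 above background. The fold in odor pools thus rests in part on a signal at the floor. From the highest group to the lowest, its means ± SD were 9.78 ± 0.62 in odor GFP+, 9.44 ± 0.68 in vehicle GFP+, 7.13 ± 0.80 in vehicle GFP- and 6.59 ± 0.99 in odor GFP-. Neighbours in that order overlapped except across the step between fractions.

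Taar4 was lower in the arrays titled GFP+ by a difference that varied little between pools. In vehicle pools 1 to 4 its signal was 6.52, 7.59, 6.42 and 5.79 in the arrays titled GFP+ and 9.86, 9.90, 9.54 and 9.38 in those titled GFP-. In odor pools it was 6.03, 7.93, 6.95 and 7.04, against 9.30, 10.53, 9.44 and 10.14. The fractions did not overlap under either treatment, and the 8 pool differences lay between -3.58 and -2.31. Taar4 fell by 3.09 ± 0.21 (SE) in vehicle pools, 8.50-fold (limma, adjusted p = 1.59e-07), and fell by 2.87 ± 0.21 in odor pools, 7.29-fold (adjusted p = 3.07e-07). In vehicle pool 4 the array titled GFP+ was only 0.20 above background, so the fold in vehicle pools rests in part on a signal near the floor. The order of its group means was 9.85 ± 0.58 (SD) in odor GFP-, 9.67 ± 0.25 in vehicle GFP-, 6.99 ± 0.78 in odor GFP+ and 6.58 ± 0.75 in vehicle GFP+, with overlap between neighbours only within a fraction.

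Taar9, at the far end of the cluster from Taar4, fell by nearly as much. Its signal in vehicle pools 1 to 4 was 7.64, 7.39, 8.90 and 7.02 in the arrays titled GFP+ and 10.80, 9.39, 11.11 and 11.50 in those titled GFP-. Odor pools gave 8.16, 8.97, 7.10 and 8.66 in the arrays titled GFP+ and 10.24, 11.28, 10.61 and 12.12 in those titled GFP-. The fractions again did not overlap, although the pool differences were spread more widely than for Taar4, from -4.48 to -1.9996. Taar9 fell by 2.96 ± 0.35 (SE) in vehicle pools, 7.79-fold (limma, adjusted p = 2.79e-05), and fell by 2.84 ± 0.35 in odor pools, 7.17-fold (adjusted p = 3.76e-05). Its group means followed the order of those of Taar4, at 11.06 ± 0.82 (SD) in odor GFP-, 10.70 ± 0.92 in vehicle GFP-, 8.22 ± 0.82 in odor GFP+ and 7.74 ± 0.81 in vehicle GFP+.

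Taar3 was lower in the arrays titled GFP+ as well, but its fractions overlapped in vehicle pools and not in odor pools. In vehicle pools 1 to 4 its signal was 6.92, 7.23, 8.80 and 5.98 in the arrays titled GFP+ and 8.83, 8.26, 8.59 and 8.81 in those titled GFP-. Vehicle pool 3 was thus as high in the array titled GFP+ as the arrays titled GFP-, and its difference was 0.21 where the other vehicle pools gave -1.03 to -2.83. In odor pools the signal was 6.44, 7.24, 6.96 and 6.11, against 8.96, 9.51, 9.24 and 9.60, with no overlap. Taar3 fell by 1.39 ± 0.37 (SE) in vehicle pools, 2.62-fold (limma, adjusted p = 0.0148), and fell by 2.64 ± 0.37 in odor pools, 6.24-fold (adjusted p = 1.27e-04). The vehicle call was lost without vehicle pool 1 (-1.22, adjusted p = 0.079) and without vehicle pool 4 (-0.91, adjusted p = 0.092). It was also lost when arrays were centred on the olfactory transduction genes (-1.04, adjusted p = 0.070). Its highest mean, 9.33 ± 0.29 (SD) in odor GFP-, did not overlap with the next, 8.62 ± 0.26 in vehicle GFP-, while vehicle GFP+ (7.23 ± 1.17) and odor GFP+ (6.69 ± 0.51) overlapped with their neighbours.

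Taar5 passed the test at signals that were at or below background. Its signal in vehicle pools 1 to 4 was 3.89, 3.48, 3.30 and 3.24 in the arrays titled GFP+ and 4.09, 4.70, 5.09 and 5.07 in those titled GFP-, and in odor pools 3.12, 3.20, 3.71 and 3.09 against 4.30, 4.88, 4.30 and 5.59. Arrays titled GFP+ were lower in 8 of 8 pools. The difference was -1.26 ± 0.31 (SE; limma, adjusted p = 0.00836) in vehicle pools and -1.49 ± 0.31 (adjusted p = 0.00257) in odor pools, and no fold is given because both fractions were at or near background. The vehicle call was lost without vehicle pool 3 (adjusted p = 0.051) or 4 (adjusted p = 0.053) and with centring on the transduction genes (-0.91, adjusted p = 0.064) or on the mean of the Olfr genes (-0.98, adjusted p = 0.068). Group means were 4.77 ± 0.61 (SD) in odor GFP-, 4.74 ± 0.47 in vehicle GFP-, 3.48 ± 0.29 in vehicle GFP+ and 3.28 ± 0.29 in odor GFP+.

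Taar6 and Taar1 passed the test in neither treatment. Taar6 gave 9.57, 8.68, 8.12 and 9.81 in vehicle arrays titled GFP+ and 8.60, 9.23, 9.83 and 9.38 in those titled GFP-, and odor pools gave 9.71, 9.51, 9.15 and 10.69 against 9.87, 9.99, 10.29 and 9.56. All 4 groups overlapped, and pool differences took both signs, from -1.71 to 1.13. The fitted difference of Taar6 was -0.21 (95% interval -1.05 to 0.62; limma, adjusted p = 0.714) in vehicle pools and -0.16 (-0.999 to 0.68; adjusted p = 0.783) in odor pools. These intervals leave out differences as large as those of Taar2, Taar4 and Taar9. The group means of Taar6 ran from 9.93 ± 0.30 (SD) in odor GFP- and 9.76 ± 0.66 in odor GFP+ to 9.26 ± 0.51 in vehicle GFP- and 9.05 ± 0.78 in vehicle GFP+.

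Taar1, which stayed below background on all arrays, ranged from 3.59 to 4.79. Its group means were 4.35 ± 0.53 (SD) in vehicle GFP-, 4.16 ± 0.19 in odor GFP-, 3.94 ± 0.10 in vehicle GFP+ and 3.92 ± 0.36 in odor GFP+, all overlapping. The fitted difference was -0.41 (-0.87 to 0.06; limma, adjusted p = 0.182) in vehicle pools and -0.24 (-0.70 to 0.22; adjusted p = 0.431) in odor pools. It passed the test, as a lower value, when arrays were centred on their median or on housekeeping genes. With these settings 12539 and 15266 of all 19505 genes passed as lower in vehicle pools, and 12906 and 15297 in odor pools. In vehicle pools Taar1 also passed without vehicle pool 4 (-0.70, adjusted p = 0.026).

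**Figure D2:**
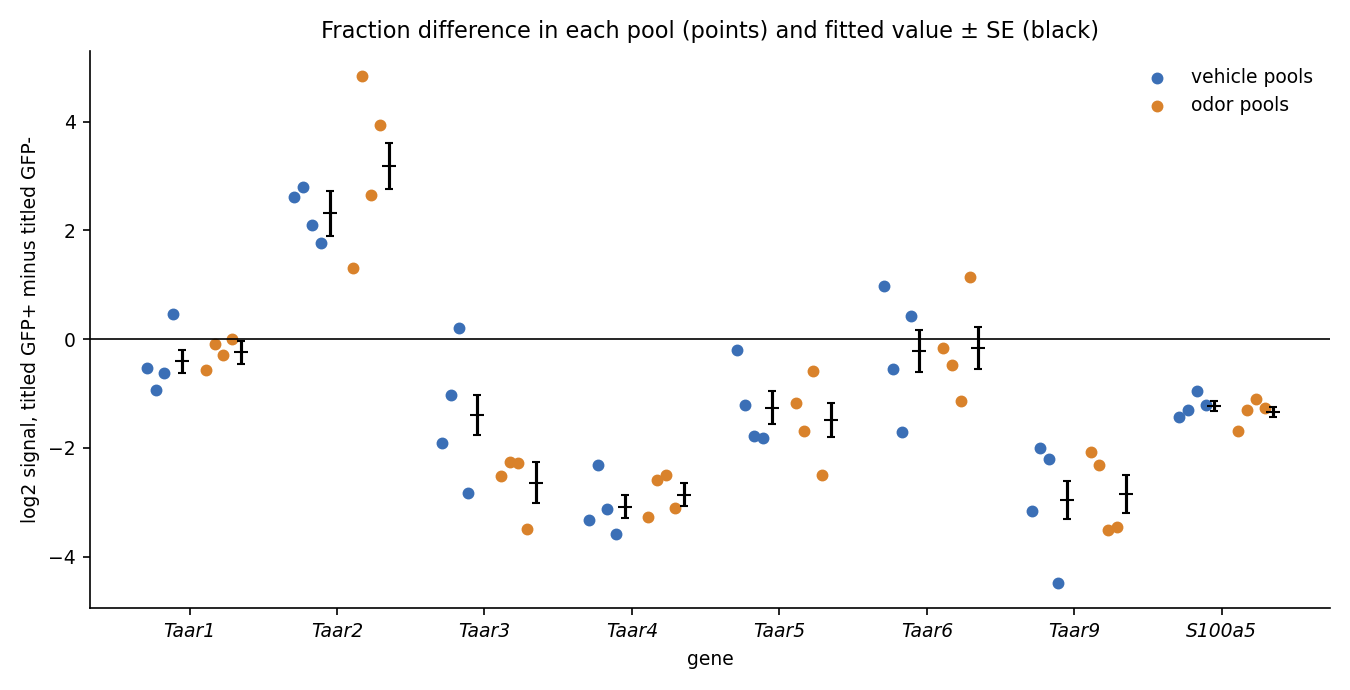
Difference between the fractions of a pool (titled GFP+ minus titled GFP-, log2) for each of the 8 pools and each Taar gene, with S100a5 beside them (points, pools; black marks, fitted difference ± SE). Taar2 is above 0 and Taar4, Taar5 and Taar9 are below 0 in all 8 pools, Taar3 is below 0 in all but vehicle pool 3, and Taar6 takes both signs.

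Counted together, 5 of the 7 genes passed the test in vehicle pools, 1 higher and 4 lower, where 26.0% of all genes passed (12.3% higher and 13.6% lower). An unadjusted p under 0.05 was reached by the same 5 genes and by 37.9% of all genes in vehicle pools, and by 5 genes and 39.4% of all genes in odor pools. The count in odor pools was again 1 higher and 4 lower, beside 27.5% of all genes (12.8% higher and 14.7% lower). The median difference of the 7 genes was -1.26 in vehicle pools and -1.49 in odor pools, beside -0.14 and -0.15 over all genes. Both medians are the values of Taar5, whose signal was at or near background. Taar5 is also among the genes counted here as lower, as free of overlap and as of 1 sign. Groups of arrays did not overlap for 4 of the 7 genes in vehicle pools (24.8% of all genes) and for 5 in odor pools (26.3% of all genes). The fraction difference had 1 sign in all 8 pools for 4 of the 7 genes, Taar2, Taar4, Taar5 and Taar9, against 29.1% of all genes. Both treatments gave the same direction for each gene that passed.

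The Olfr genes are the closest comparison, being receptors that mark other olfactory neurons. Of the 1091 genes named Olfr, 260 were higher and 519 lower in vehicle pools, and 252 and 531 in odor pools. Over the 1106 Olfr and Taar genes, the median difference was -0.60 in vehicle pools and -0.65 in odor pools. Placed among these 1106 receptors, Taar4 had a lower difference than most, with 6.78% (vehicle) and 9.13% (odor) of receptors below it. For Taar9 the shares were 7.78% and 9.40%. Taar2 stood toward the other end, with 87.3% and 90.1% of receptors below it. Taar6 lay near the middle at 59.2% and 61.9%, and Taar3 moved from 34.1% in vehicle pools to 12.0% in odor pools. By rank, the 7 genes thus stood between 6.78% and 90.1% of the receptors.

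**Figure D3:**
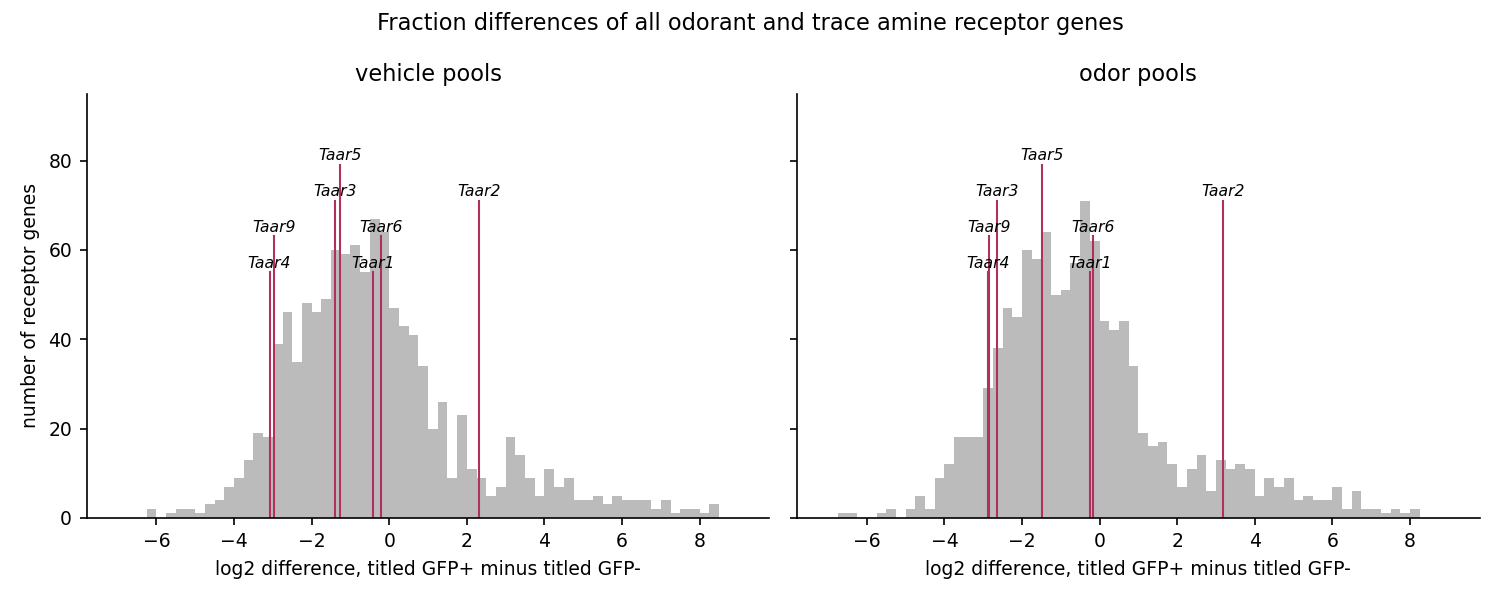
Histogram of the fraction difference (titled GFP+ minus titled GFP-, log2, bins of 0.25) of the 1106 Olfr and Taar genes in vehicle and in odor pools, with the 7 Taar genes marked by vertical lines whose heights carry no value. Taar4 and Taar9 stand in the lower tail and Taar2 toward the upper end under both treatments.

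Along the cluster, Taar2 and the adjacent Taar3 passed the test in opposite directions, while Taar3 to Taar6 were all below 0 under both treatments. Taar2 (2.32 in vehicle pools) is followed by Taar3 (-1.39), Taar4 (-3.09) and Taar5 (-1.26), and then by Taar6 (-0.21). Of the 8 Taar7 and Taar8 genes that lie between Taar6 and Taar9, 2 were higher and 3 lower in vehicle pools, and of those that passed Taar7b was the lowest at -2.52 and Taar7f the highest at 0.79. In odor pools 1 was higher and 4 were lower, and the median of the 8 was -0.47 in vehicle and -0.40 in odor pools. On one side of the cluster lie Vnn3 and Vnn1, which encode pantetheinases of the vanin family and were above background on 0 arrays, without a call. Beyond Taar9 lies Stx7, a syntaxin of endosomal fusion, which differed by 0.06 and 0.08 without passing the test. The next gene, Moxd1, a monooxygenase related to dopamine beta-hydroxylase, was higher in the arrays titled GFP+ by 1.18 ± 0.21 (SE; limma, adjusted p = 0.00117) and 1.35 ± 0.21 (adjusted p = 3.61e-04). None of these 4 flanking genes passed the test as lower in the limma fits, where 13.6% (vehicle) and 14.7% (odor) of all genes did. So few genes, with Vnn3 and Vnn1 below background, cannot show where along the chromosome lower values end.

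**Figure D4:**
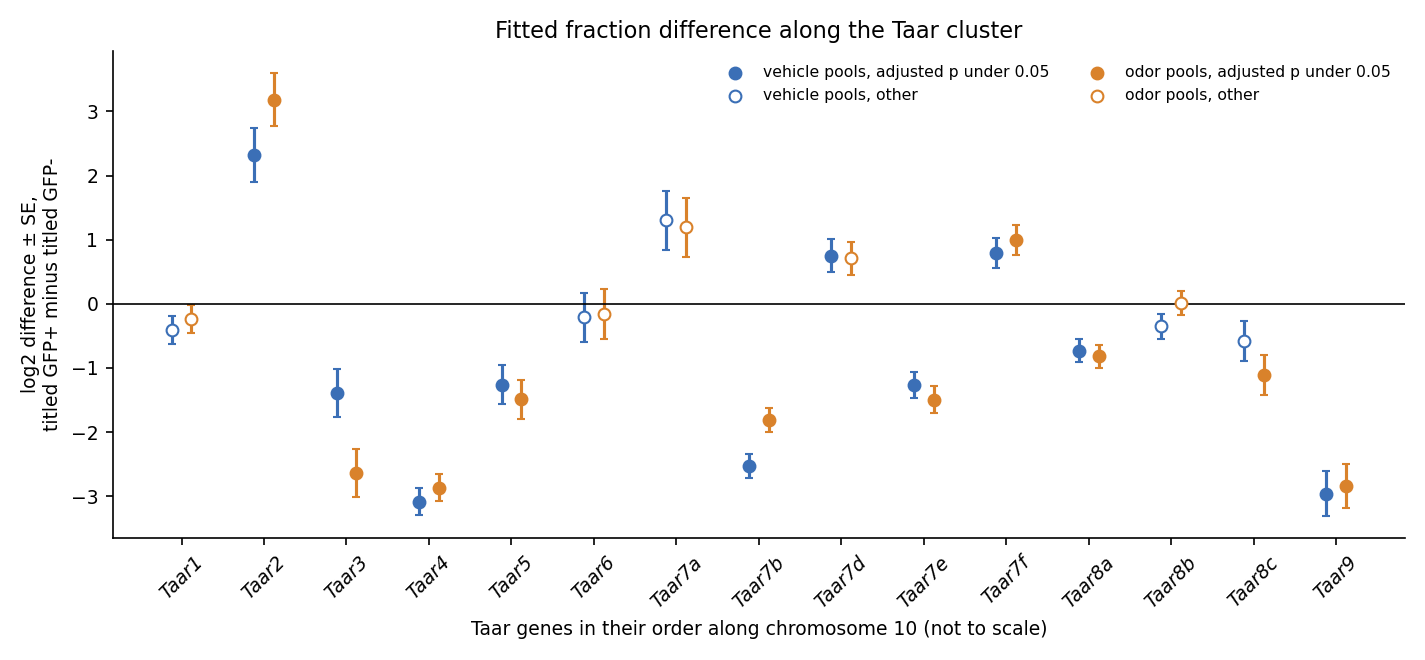
Fraction difference ± SE (titled GFP+ minus titled GFP-, log2) of the 15 Taar genes in their order along chromosome 10, in vehicle and odor pools (filled marks, adjusted p under 0.05; open marks, not passed). Taar2 stands above 0 between Taar1 and Taar3, the values of Taar3 to Taar5 and Taar9 lie below 0, and the Taar7 and Taar8 genes between them take both signs.

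Across the 16 arrays the genes that were lower in the arrays titled GFP+ had high pairwise correlations, which include the fraction difference they share. Pearson's r was 0.87 for Taar4 and Taar9, 0.86 for Taar3 and Taar9 and 0.84 for Taar3 and Taar4, and it was -0.85 for Taar2 and Taar4. After the group means were removed, these fell to 0.22 for Taar4 and Taar9, 0.58 for Taar3 and Taar9 and 0.36 for Taar3 and Taar4, and to -0.15 for Taar2 and Taar4. The strongest value left was that of Taar3 and Taar6, at -0.76, from -0.16 before. It shows in single pools, since among vehicle arrays titled GFP+ pool 3 was highest for Taar3 (8.80) and lowest for Taar6 (8.12), and pool 4 was lowest for Taar3 (5.98) and highest for Taar6 (9.81). In odor pool 4 the array titled GFP+ was again lowest for Taar3 (6.11) and highest for Taar6 (10.69). These correlations are descriptions over 16 arrays that share 8 pools.

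Pearson's r over the 16 arrays includes the fraction difference, which 260 (higher) and 519 (lower) of the 1091 Olfr genes showed in vehicle pools. For each member above background, the 3 genes with the highest r of all 19505 are given. Their r after group means were removed lay between 0.62 and 0.83. The 3 were picked as the highest of 19505 on these same arrays, so both kinds of r are raised by the choice. No r of genes picked otherwise was set beside them. For Taar2 the 3 genes were Olfr1494 (Pearson's r = 0.95, and 0.80 after group means were removed), Olfr68 (0.94) and Olfr813 (0.94). For Taar4 they were Olfr1093 (r = 0.97, and 0.77 after group means were removed), Olfr535 (0.97) and Olfr1102 (0.97). Taar3 was followed most closely by Acyp2 (r = 0.91), an acylphosphatase gene, by Olfr978 (0.91) and by Olfr211 (0.91). Those of Taar9 were Pdgfa (r = 0.96), a growth factor gene, Oxnad1 (0.94) and Olfr961 (0.94). For Taar6 the 3 were Mef2d (r = 0.83), a transcription factor, Crtc3 (0.78), a coactivator of CREB, and Lrp8 (0.78), a lipoprotein receptor. Taar6 passed no test between fractions, so its r includes little of the fraction difference that raises the other values. Its lower r, and the lack of odorant receptor genes among the 3, are therefore not read as a trait of Taar6.

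Taar neurons share their signalling cascade with Olfr neurons. Of 13 olfactory transduction genes, 8 were lower and 0 higher in the arrays titled GFP+ in vehicle pools, where 13.6% of all genes were lower, with a median of -0.34 beside -0.14 over all genes. In odor pools 8 were again lower and 0 higher, where 14.7% of all genes were lower, with a median of -0.30 beside -0.15. Among the genes that passed, the largest differences in vehicle pools were those of the phosphodiesterases Pde1c (-0.81 and -0.80) and Pde4a (-0.53 and -0.42), the calcium-gated chloride channel Ano2 (-0.48 and -0.47) and the sodium-calcium exchanger Slc24a4 (-0.46 and -0.48). Of 4 genes for receptor trafficking, 1 was lower in vehicle pools, Rtp2 (-0.36), which helps receptors reach the cell surface, and 2 were lower in odor pools. With median centring or centring on housekeeping genes most genes of the array counted as lower, and with centring on the transduction genes themselves these would be near 0 by construction.

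Among 13 genes known as regulators of receptor choice, 1 was higher and 4 were lower under each treatment. Over all genes 12.3% were higher and 13.6% lower in vehicle pools, and 12.8% and 14.7% in odor pools. Lbr, the lamin B receptor, whose loss from olfactory neurons is part of how receptor genes gather in the nucleus, was higher by 1.89 ± 0.24 (SE; limma, adjusted p = 4.68e-05) in vehicle pools and 1.99 ± 0.24 (adjusted p = 2.67e-05) in odor pools. Neutrophil markers and most progenitor markers were higher in the same arrays, and which cells carried the Lbr difference was not tested. The lower genes included the transcription factors Emx2 (-0.46 in vehicle pools, -0.32 in odor pools) and Ebf2 (-0.29 and -0.33). Of 6 genes that mark dorsal or ventral zones of the epithelium, 2 were lower in vehicle pools, the dorsal marker Nqo1 (-0.19) and the ventral marker Ncam2 (-0.30). In odor pools 0 of 6 passed, where 27.5% of all genes passed in either direction. Centring on the transduction genes moved the median of all genes from -0.14 to 0.21 in vehicle pools, a shift larger than the differences of Ebf2, Nqo1 and Ncam2, whose signs turn there.

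Whether whiskey lactone changed the 7 genes was asked within each fraction. In the arrays titled GFP+, 0 of the 7 passed the test (limma with the pool as a random block), where 0.00513% of all genes, 1 gene, passed, and 0 of 7 had an unadjusted p under 0.05, against 4.88% of all genes. Odor and vehicle arrays were free of overlap for 0 of the 7 genes there, against 2.38% of all genes. In the arrays titled GFP- 0 of 7 passed, as did 0.0% of all genes, and 0 of 7 had an unadjusted p under 0.05, against 5.88% of all genes. With the replicate number as a block, 0 of 7 passed in either fraction, beside 2 of 19505 genes in the arrays titled GFP+ and 15 of 19505 in those titled GFP-, all of them higher after odor.

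The intervals show what sizes the 4 pools per treatment could not tell from 0. Taar6 had the largest positive difference in the arrays titled GFP+, with odor above vehicle by 0.72 (95% interval -0.07 to 1.51; limma, unadjusted p = 0.0724, adjusted p = 1.00), and a difference of 0.67 (-0.12 to 1.46; adjusted p = 0.875) in those titled GFP-. Taar3 differed by -0.55 (-1.41 to 0.32; adjusted p = 1.00) in the arrays titled GFP+ and by 0.70 (-0.16 to 1.57; adjusted p = 0.881) in those titled GFP-. Without vehicle pool 3 the former was -0.0234, and without vehicle pool 4 it was -0.96. In the arrays titled GFP- its odor arrays (8.96 to 9.60) did not overlap with its vehicle arrays (8.26 to 8.83), which held for 4.45% of all genes and for no other gene of the 7. Taar2 differed by 0.33 (-0.66 to 1.33) and -0.53 (-1.53 to 0.46), and Taar9 by 0.48 (-0.54 to 1.51) and 0.36 (-0.66 to 1.39). For Taar4 the differences were 0.41 (-0.36 to 1.17) and 0.18 (-0.58 to 0.95). Taar1 and Taar5, at background, lay between -0.20 and 0.03.

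The difference between the fractions was then compared between treatments. It passed the test for 0 of the 7 genes (limma, adjusted p = 0.999 for each), beside 0.00513% of all genes. Taar3 alone had an unadjusted p under 0.05 (0.0343), which held for 3.27% of all genes, with a fraction difference lower by 1.25 (95% interval -2.39 to -0.11) in odor than in vehicle pools. Without vehicle pool 3, the one pool with a difference above 0 (0.21), this value was -0.72. Taar2 had the next largest change, 0.87 (-0.40 to 2.14), with odor pool differences of 1.31, 4.84, 2.66 and 3.94 against 2.61, 2.79, 2.10 and 1.77 in vehicle pools. It was 0.31 without odor pool 2 and 1.49 without odor pool 1. The changes of Taar4 (0.22, interval -0.42 to 0.87), Taar9 (0.12, -0.95 to 1.19), Taar6 (0.05, -1.13 to 1.24), Taar1 (0.17) and Taar5 (-0.23) had intervals that include 0.

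**Figure D5:**
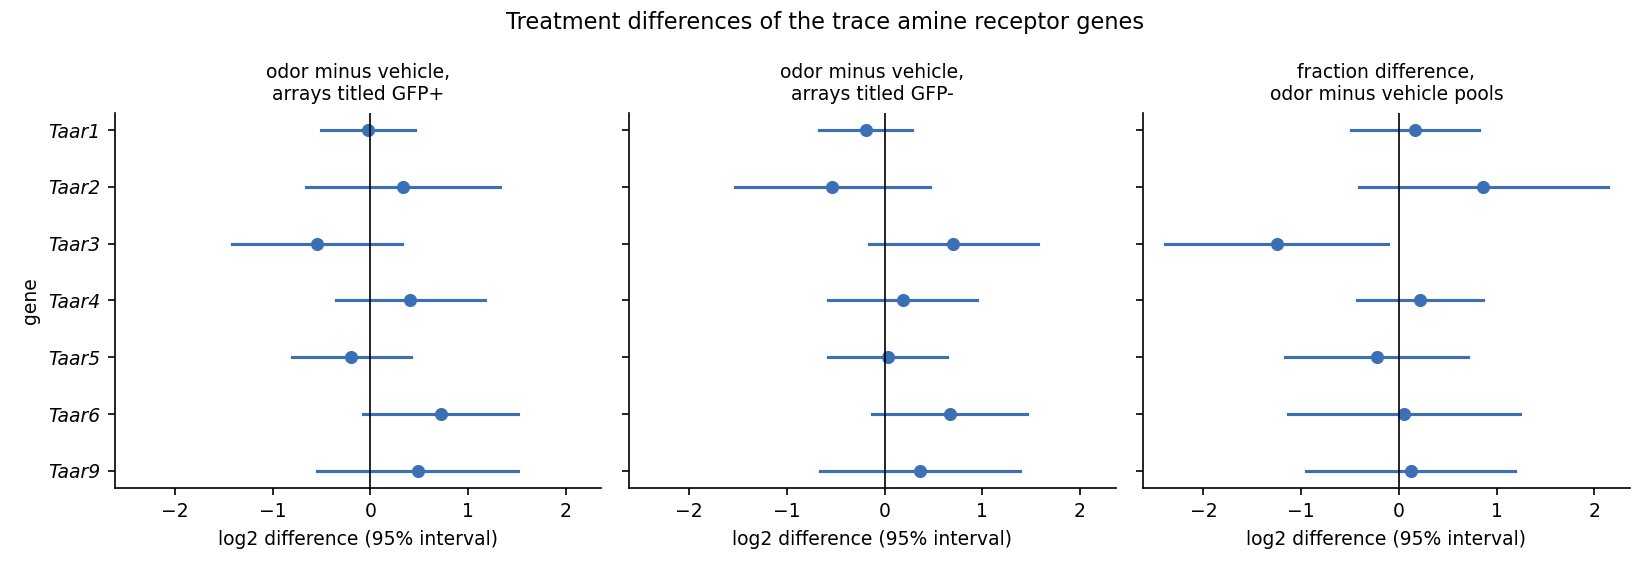
Odor minus vehicle (log2) for the 7 Taar genes in the arrays titled GFP+ and titled GFP-, and the difference of the fraction differences between treatments (points, fitted values; bars, 95% intervals). All intervals include 0 except that of Taar3 for the difference of the fraction differences, which runs from -2.39 to -0.11 before adjustment over all genes.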

How the data were processed

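The values are log2 signals per feature as the authors deposited them. The submitters' processing notes name Affymetrix Expression Console, and its version, background step and normalization method are not given in the sources read for this work. Of 28846 features, 19572 had 1 gene symbol and 0 had several. For genes with more than 1 feature, the one with the highest mean was kept, which left 19505 genes. Gene names and coordinates come from RefSeq (GRCm38.p6).

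Samples were grouped by title. Differences were fitted with limma 3.58.1 in R 4.3.3 (lmFit and eBayes with a trend of the variance on the mean). Tests were two-sided, p-values were adjusted by Benjamini-Hochberg over all genes, and the threshold was 0.05. Fractions of a pool come from the same mice, so the pool of 3 mice was a fixed block for fraction differences (6 residual degrees of freedom). Deviations from group means correlated within each pool at 0.116 to 0.341. Odor and vehicle were compared from the 4 group means, and the pool entered as a random block there (correlation 0.164). By the labels, equal replicate numbers tie no odor pool to a vehicle pool, but same-numbered arrays deviated together: for the fraction titled GFP- the correlations ran from 0.198 to 0.279, with all 4 over 0.1, and for GFP+ from 0.0787 to 0.410, with 3 over 0.1. The number was therefore also fitted as a block. Arrays give no read depth, and their number limits the precision. The fits were tested on simulated data. The named genes were the 7 members, S100a5, Omp, up to 4 genes per list, the 3 closest genes by correlation and the flanking genes. Members and lists were chosen with earlier results of these data known.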

Additional observations from a re-analysis of the deposited data

How the results depend on the processing

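Of the 7 genes, the number passing the test stayed within 1.5 times of the reported one under all alternatives tried except 1. With centring on the olfactory transduction genes, 3 of the 7 genes passed in vehicle pools instead of 5. With the 95th percentile of the negative controls as background, 0 instead of 5 genes were above it on all arrays. Leaving out 1 pool in turn gave 4 to 5 genes in vehicle pools, 5 to 5 in odor pools and 0 to 0 in the other comparisons. Over all 19505 genes it gave 3552 to 5143 in vehicle pools and 3709 to 5518 in odor pools. The fractions fitted without the pool as a block gave 5 and 5 genes, beside 4358 (vehicle) and 4596 (odor) of all genes. The replicate number as a block between odor and vehicle gave 0 and 0. The replicate block changed no call among the 7 genes.

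Among the 7 genes, signs turned only for differences that did not pass the test. Centring on the transduction genes gave 0.0711 for Taar1 in odor pools and 0.14 and 0.15 for Taar6 in vehicle and odor pools. Centring on the Olfr mean, chosen after seeing the data, gave 0.0857, 0.0650 and 0.16 for these, and cyclic loess 0.0231 for Taar6 in odor pools. Odor minus vehicle of Taar5 in the arrays titled GFP- was -0.0240 with centring on the Olfr mean and -0.0029 with median centring. Without 1 pool in turn, the fraction difference of Taar6 ran from -0.61 to 0.28 in vehicle and -0.59 to 0.16 in odor pools. Odor minus vehicle ran from -0.19 to 0.0862 for Taar1 in the arrays titled GFP+, and in those titled GFP- from -0.0396 to 0.37 for Taar4, -0.24 to 0.19 for Taar5 and -0.0750 to 0.64 for Taar9. The change of the fraction difference between treatments ran from -0.0093 to 0.46 for Taar1, -0.53 to 0.12 for Taar5, -0.45 to 0.45 for Taar6 and -0.38 to 0.44 for Taar9. The cause was not tested.

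Over all genes in vehicle pools, 2406 were higher and 2658 lower as reported, 1818 and 12539 with median centring, 1472 and 15266 with housekeeping centring, 4817 and 638 with transduction centring, 3143 and 652 with Olfr centring, and 2792 and 1411 with cyclic loess. The median difference moved from -0.14 to -0.51, -0.74, 0.21, 0.13 and -0.02.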
